A study of Mus musculus with 2 samples.

Results

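The mucin-type O-glycosylation enzymes of mouse colon epithelium were taken as the genes whose symbols begin with Galnt, Gcnt, B3gnt, B4galt, C1galt1, St3gal, St6gal, Fut or Chst. The gene lists of the deposited matrices held 80 such genes of 31053. Of these, 53 had at least 100 unique molecular identifiers (UMIs, one per captured RNA molecule) over both matrices, as did 13120 genes in all, and these 53 are described below. The choice used symbols and total counts only, and no difference between cells or libraries.

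Mucin-type O-glycans are sugar chains built in the Golgi on serine and threonine residues, and they make up much of the mass of the colon's mucus. Polypeptide GalNAc transferases place the first sugar. C1galt1 then makes the core 1 structure or B3gnt6 the core 3 structure, Gcnt enzymes branch these cores, B3gnt and B4galt enzymes lengthen the chains, and sialic acid, fucose and sulfate are added at their ends. Goblet cells secrete Muc2, the main mucin of colonic mucus, while colonocytes, the absorptive cells, carry membrane-bound mucins such as Muc3 and Muc13. Several genes with these symbol stems act mainly on other glycans. Among them, St3gal5, B4galt6 and B3gnt5 act on glycolipids, and St6gal1 and Fut8 on N-glycans. Chst11, Chst12, Chst13 and Chst15 act on chondroitin or dermatan sulfate, and B4galt7 on the linker of proteoglycans.

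The study has 1 single-cell library per group. The library labelled whole epithelium is from untreated mice with a tamoxifen-inducible Cre at the c-Kit gene (c-Kit-creERT2). The library labelled GFP is from c-Kit-creERT2;Rosa26-mTG mice given 1 intraperitoneal tamoxifen injection of 1 mg per 20 g, and its cells are described as derived from c-Kit+ cells, which the reporter marks with GFP along with their progeny. Both groups thus carry the Cre, but tamoxifen, reporter and sort are each present in 1 group only and cannot be told apart, and the number and age of the animals and the time after injection are not given in the sources used here.

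The libraries held 13967 barcodes with 164185392 UMIs (whole epithelium) and 13575 barcodes with 150348319 UMIs (GFP), of which 7762 and 5767 cells passed the filters with a median of 14160 and 15821 UMIs. The deposited records cross the matrices and barcode lists of the samples, and each matrix was assigned by its number of columns, so every direction between libraries rests on that assignment. The libraries shared 60 barcodes, 19 of them among kept cells. Clusters were named from marker genes that include no enzyme described here, and the enzymes were left out of the clustering. Goblet-like cells numbered 1067 and 1040 (whole epithelium and GFP), colonocyte-like cells 1895 and 1621, stem/TA-like cells (stem or transit-amplifying) 1334 and 767, enteroendocrine-like cells 330 and 109, tuft-like cells 36 and 44, and T/NK-like cells 229 and 61. Clusters of low UMI count that stayed unnamed held 17.5% and 23.7% of kept cells, and deeper unnamed clusters 19.2% and 13.1%. Most clusters drew nearly all their cells from 1 library, and 1 of the stem/TA-like clusters in the whole epithelium library, c9, was led by haemoglobin genes.

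Levels are in CPM, that is UMIs scaled to 1e6 over the summed cells. With no replicate library there is no test. The 95% intervals are exact for counting error alone and cover neither animals nor preparation nor variation among cells. A gene is called higher or lower where the ratio of levels passes 2-fold, among genes with at least 100 UMIs in the cells compared. A gene can reach that minimum through the class in which it is high, so the counts below are of tested genes and not of the whole set.

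Goblet-like cells carried the most enzyme RNA. The enzymes, without the antisense RNA Galnt6os, summed to 3672 CPM in goblet-like cells in the whole epithelium library and 3217 CPM in those in the GFP library. In colonocyte-like cells they summed to 2073 and 2420 CPM, and in stem/TA-like cells to 899 and 1579 CPM. Enteroendocrine-like cells held 1597 and 2018 CPM and tuft-like cells 1558 and 1956 CPM. T/NK-like cells, which are not epithelial, still held 993 and 1986 CPM. Per cell that was 5.50 and 5.23 enzyme UMIs, beside 64.2 and 86.9 in goblet-like cells and 6.24 and 4.67 in the shallow unnamed clusters. The T/NK-like cells were shallower, with a median of 4147 and 1897 UMIs beside 15245 and 23413.5 in goblet-like cells. RNA from outside the cell can give UMIs of this kind, as can the cells' own RNA and kept doublets (barcodes holding several cells). The part of each was not tested. Low levels of an enzyme that is abundant elsewhere were therefore not read as expression.

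**Figure D1:**
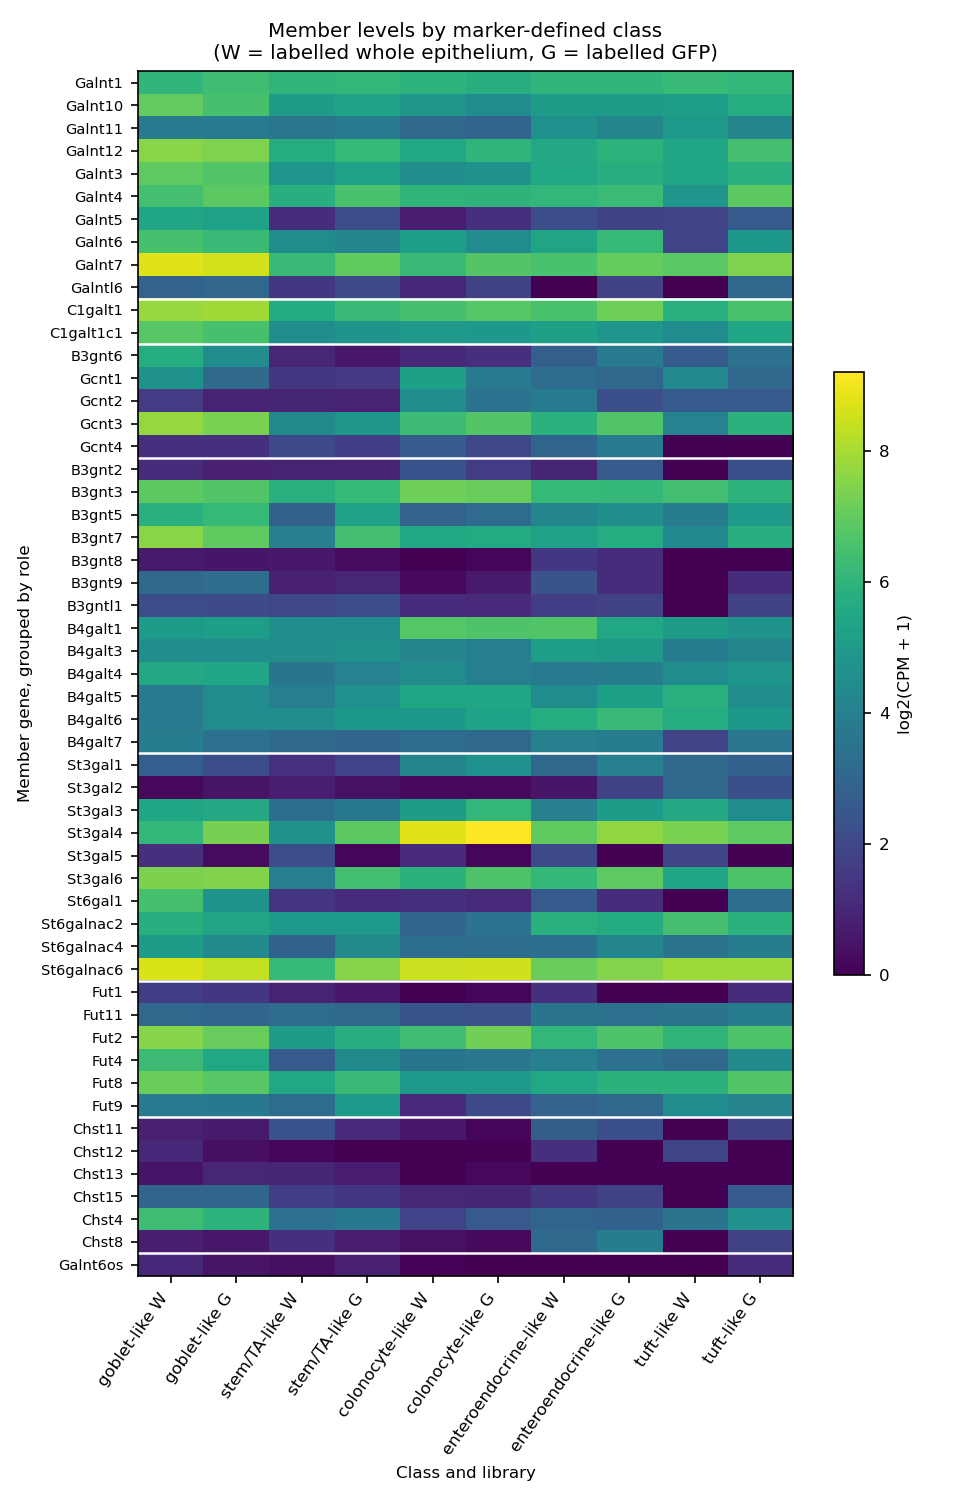
Level of each enzyme in CPM by marker-defined class and library, grouped by role, with colour as log2 of CPM plus 1 (W and G are the whole epithelium and GFP libraries). The goblet-like columns are the highest for Galnt7, both core 1 genes, B3gnt6 and Chst4, and the colonocyte-like columns for St3gal4.

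Within each library, 23 of the 43 enzymes tested in both were at least 2-fold higher in goblet-like than in colonocyte-like cells in both libraries, which is 53.5%, where 25.1% of 10331 genes were. A further 6 (14%, against 9.16% of all genes) were at least 2-fold lower in both, and 10 of the 53 had too few UMIs to be compared. Against stem/TA-like cells, 21 of 41 enzymes were higher in goblet-like cells of both libraries and 0 were lower, beside 4.21% and 3.02% of 10659 genes. Stem/TA-like cells had 4 of 38 enzymes higher and 9 lower than colonocyte-like cells, beside 29.4% and 9.71% of 10501 genes. The median log2 ratio of goblet-like over stem/TA-like cells was 1.95 for the enzymes and -0.13 for all genes in the whole epithelium library, and 1.03 and -0.17 in the GFP library.

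The GalNAc transferases, which start the chain, had 10 used genes of 19 found. Of these, Galnt3, Galnt5, Galnt6, Galnt7, Galnt10, Galnt12 and Galntl6 were higher in goblet-like cells than in either colonocyte-like or stem/TA-like cells, in both libraries, and none was lower. Galnt1, Galnt4 and Galnt11 did not pass 2-fold in both libraries. Galnt1, a broadly acting family member, was at 65.9, 60.9 and 64.4 CPM in goblet-like, colonocyte-like and stem/TA-like cells in the whole epithelium library, and at 81.1, 54.0 and 67.6 CPM in those in the GFP library. Its level was thus close to even across the classes.

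Galnt5 (ENSMUSG00000026828, chromosome 2, 57997884 to 58045860) had the widest gap of the family. It was at 41.2 CPM in goblet-like and 0.623 CPM in colonocyte-like cells in the whole epithelium library, a log2 ratio of 6.05 (5.43 to 6.75). In the GFP library it was at 37.3 and 1.43 CPM, a log2 ratio of 4.70 (4.28 to 5.16). The stem/TA-like levels were 1.26 and 3.67 CPM, between those of colonocyte-like and goblet-like cells. Galnt7 (ENSMUSG00000031608, chromosome 8, 57523828 to 57653032), which prefers peptides that already carry a GalNAc, had the most UMIs of the family. It was at 427 and 377 CPM in goblet-like cells of the whole epithelium and GFP libraries, and at 74.6 and 104 CPM in colonocyte-like cells. The log2 ratios of goblet-like over colonocyte-like cells were 2.38 (2.26 to 2.50) and 2.01 (1.90 to 2.13) for Galnt3, and 2.13 (2.02 to 2.24) and 2.13 (2.01 to 2.25) for Galnt10, in the whole epithelium and GFP libraries.

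Both core 1 genes were higher in goblet-like cells. C1galt1, the core 1 galactosyltransferase, was at 220 and 235 CPM in goblet-like cells of the whole epithelium and GFP libraries, at 90.3 and 109 CPM in colonocyte-like cells and at 49.4 and 73.5 CPM in stem/TA-like cells. C1galt1c1, the chaperone that C1galt1 needs, was at 110 and 90.2 CPM in goblet-like cells, beside 29.5 and 29.1 CPM in colonocyte-like cells.

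The genes that build core 3 and branch the cores went different ways between classes. B3gnt6 (ENSMUSG00000074004, chromosome 7, 98192417 to 98199481), the core 3 synthase, was at 50.1 CPM in goblet-like and 1.07 CPM in colonocyte-like cells in the whole epithelium library, a log2 ratio of 5.55 (5.07 to 6.08). In the GFP library it was at 21.1 and 1.37 CPM, a log2 ratio of 3.95 (3.51 to 4.42). Its stem/TA-like levels were 0.959 and 0.500 CPM, so it was near 0 in both of these other classes. Gcnt3 (ENSMUSG00000032226, chromosome 9, 70031496 to 70038088), which makes core 2 and core 4 branches, was at 215 and 161 CPM in goblet-like cells of the whole epithelium and GFP libraries, at 78.4 and 107 CPM in colonocyte-like cells and at 19.6 and 27.9 CPM in stem/TA-like cells. It passed 2-fold against stem/TA-like cells in both libraries, but against colonocyte-like cells only in the whole epithelium library.

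Gcnt2, which makes the branches of the I antigen, was lower in goblet-like cells. It was at 2.09 CPM in goblet-like and 21.7 CPM in colonocyte-like cells in the whole epithelium library (log2 ratio -3.38, -3.88 to -2.91), and at 0.819 and 10.3 CPM in those in the GFP library (-3.66, -4.34 to -3.05). Gcnt2 was also at 56.0 and 31.1 CPM in T/NK-like cells of the whole epithelium and GFP libraries, on 71 and 5 UMIs. Gcnt4 was lower in goblet-like than in colonocyte-like cells as well, at 1.34 against 5.43 CPM and 1.35 against 2.98 CPM. Gcnt1, the main core 2 branching enzyme of many tissues, did not pass 2-fold between goblet-like and colonocyte-like cells in either library.

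The extension enzymes were split. B3gnt5, B3gnt7, B3gnt9, B3gntl1 and B4galt4 were higher in goblet-like than in colonocyte-like cells of both libraries, and B4galt1 and B4galt5 were lower. B3gnt5, the glycolipid enzyme that starts lacto-series chains, was at 56.8 and 6.61 CPM in goblet-like and colonocyte-like cells in the whole epithelium library, a log2 ratio of 3.1 (2.89 to 3.32). In the GFP library the levels were 69.8 and 8.24 CPM, a log2 ratio of 3.08 (2.90 to 3.27). B3gnt9 was at 7.78 and 8.72 CPM in goblet-like cells of the whole epithelium and GFP libraries, and at 0.178 and 0.578 CPM in colonocyte-like cells, on 6 and 19 UMIs there. B4galt1, a galactosyltransferase of many glycan types, was at 31.4 CPM in goblet-like and 109 CPM in colonocyte-like cells in the whole epithelium library and at 33.4 and 101 CPM in those in the GFP library. B3gnt3, which had the most UMIs of this role and extends core 1, differed little. It was at 117 and 141 CPM in goblet-like and colonocyte-like cells in the whole epithelium library, and at 104 and 132 CPM in those in the GFP library.

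Among sialyltransferases, the main contrast was between St6gal1 and St3gal4. St6gal1 (ENSMUSG00000022885, chromosome 16, 23224740 to 23360350), which adds alpha-2,6-linked sialic acid mainly to N-glycans, was at 89.7 CPM in goblet-like and 1.39 CPM in colonocyte-like cells in the whole epithelium library, a log2 ratio of 6.01 (5.59 to 6.46). In the GFP library it was at 25.9 and 1.22 CPM, a log2 ratio of 4.41 (3.95 to 4.91). St3gal4 (ENSMUSG00000032038, chromosome 9, 35046576 to 35119268), which adds alpha-2,3-linked sialic acid to galactose, had the opposite order. It was at 67.2 CPM in goblet-like and 438 CPM in colonocyte-like cells in the whole epithelium library (log2 ratio -2.70, -2.79 to -2.62), and at 158 and 585 CPM in those in the GFP library (-1.89, -1.94 to -1.84).

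St6galnac2 (ENSMUSG00000057286) and St6galnac4 were also higher in goblet-like than in colonocyte-like cells of both libraries, and St3gal1, which caps core 1, was lower. St6galnac2 was at 52.8 against 7.0 CPM and at 40.1 against 10.2 CPM, in the whole epithelium and GFP libraries. The gene list holds a second entry with the symbol St6galnac2, which shares exon sequence with this one and had 39 UMIs. St6galnac6, with the most UMIs of this role, was at 405 and 351 CPM in goblet-like and colonocyte-like cells in the whole epithelium library and at 327 and 373 CPM in those in the GFP library, so its order turned between libraries. St6galnac1, known as the enzyme that makes the sialyl-Tn antigen in human goblet cells, had 11 UMIs in all and was not used.

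Fut4, Fut8 and Fut9 were higher in goblet-like than in colonocyte-like cells of both libraries. Fut4, which like Fut9 adds fucose in alpha-1,3 linkage to form Lewis x, was at 77.3 and 43.9 CPM in goblet-like and at 10.8 and 11.4 CPM in colonocyte-like cells of the whole epithelium and GFP libraries. Fut2, the enzyme that forms the H antigen in epithelia, was at 181 CPM in goblet-like and 81.0 CPM in colonocyte-like cells in the whole epithelium library. In the GFP library it was at 132 and 150 CPM, so the excess of Fut2 over colonocyte-like cells was seen in 1 library only. Over stem/TA-like cells, Fut2 was at least 2-fold higher in goblet-like cells of both libraries. Of the 14 sulfotransferase genes found, 6 were used and 2 could be compared. Chst4, which adds sulfate to N-acetylglucosamine, was at 79.6 and 60 CPM in goblet-like cells of the whole epithelium and GFP libraries and at 2.58 and 4.87 CPM in colonocyte-like cells. Chst15 was at 7.03 and 7.05 CPM in goblet-like cells and at 0.979 and 0.943 CPM in colonocyte-like cells. Every role thus had genes higher in goblet-like than in colonocyte-like cells, with colonocyte-high genes among branching, extension and sialylation. The goblet-high genes were 7 of 10 GalNAc transferases, 2 of 2 core 1, 1 of 5 core 3 and branching and 5 of 11 extension genes. They were also 3 of 8 sialyl-, 3 of 5 fucosyl- and 2 of 2 sulfotransferases, beside 25.1% of all genes. Of those named, B3gnt5, B3gnt7, B3gntl1, Fut8, Fut9, St6galnac2 and St6galnac4 did not pass 2-fold over stem/TA-like cells in both libraries.

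**Figure D2:**
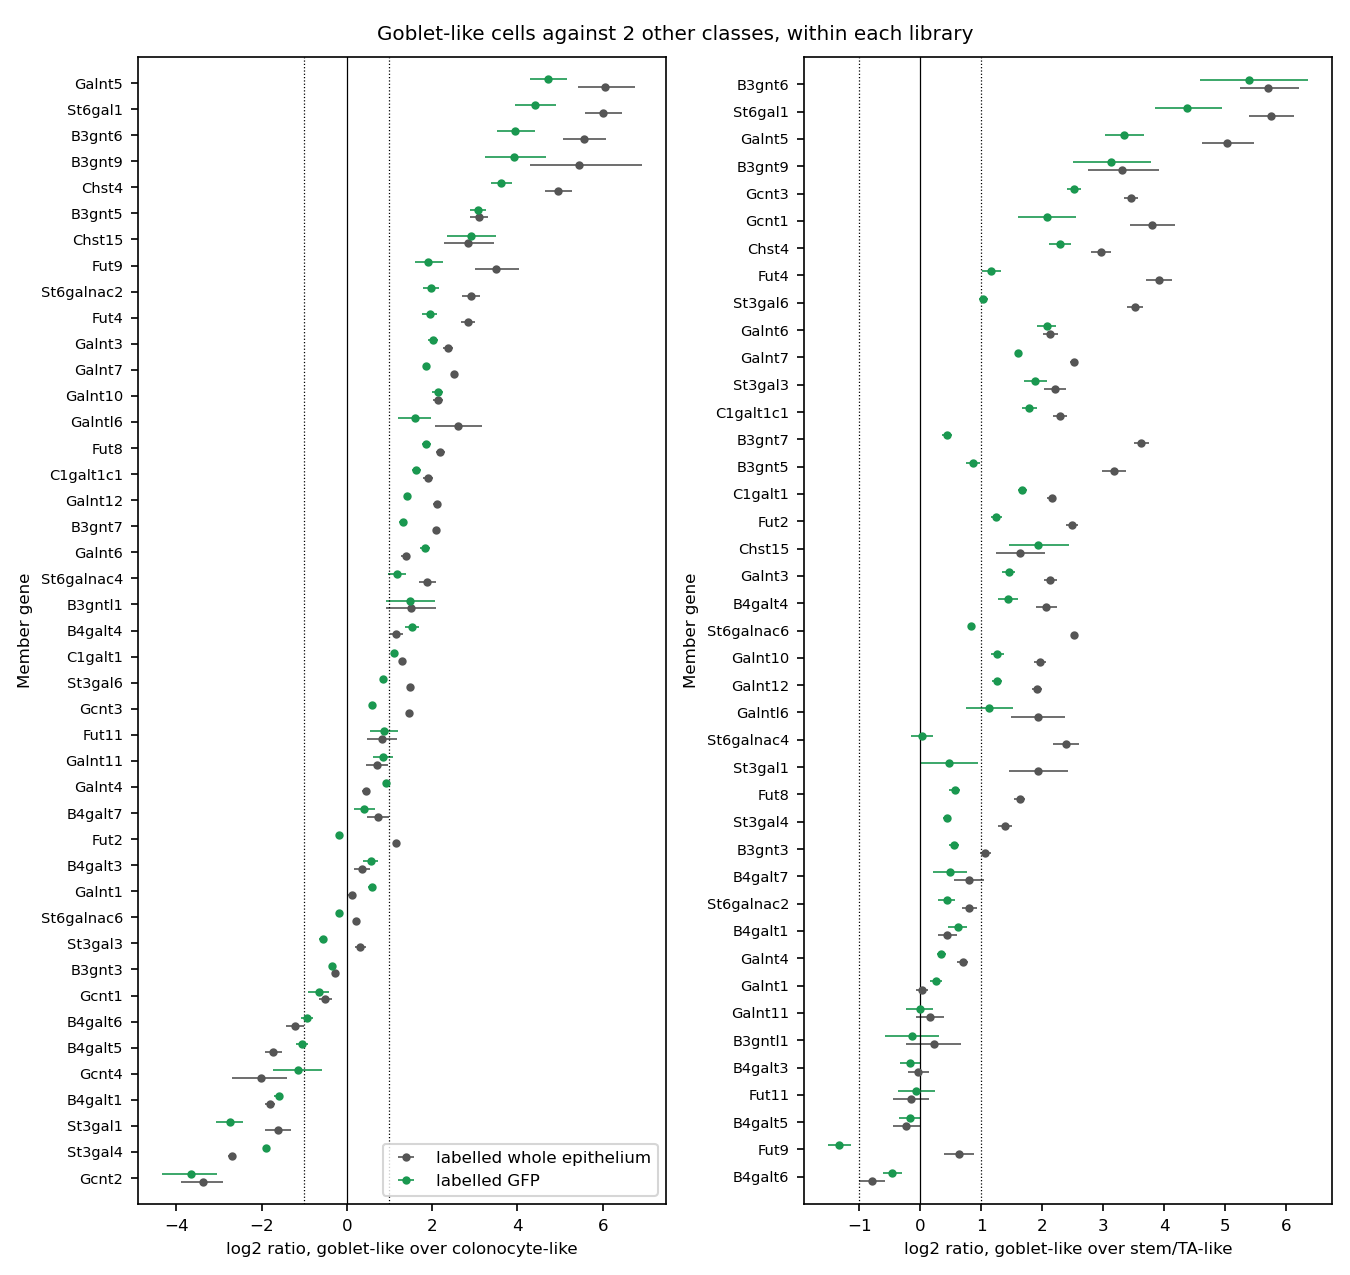
Log2 ratio of levels in goblet-like over colonocyte-like cells (left) and over stem/TA-like cells (right) for each tested enzyme, grey for the whole epithelium library and green for the GFP library, with 95% intervals for counting error and dotted lines at 2-fold. On the left, the 23 genes past 2-fold in both libraries on the goblet side include Galnt5, St6gal1 and B3gnt6, and the 6 on the colonocyte side include Gcnt2 and St3gal4.

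The other genes of the pathway were read from lists, some of whose members share the goblet program. Their counts stand beside 25.1% of all genes higher and 9.16% lower in goblet-like than in colonocyte-like cells of both libraries. Of 20 tested genes that make sugar nucleotides, 7 were higher in goblet-like than in colonocyte-like cells of both libraries (Fuk, Galk1, Galk2, Gne, Nans, Pgm3 and Tsta3) and 1 was lower. The lower one was Papss2, which makes the sulfate donor and was at 74.0 against 305 CPM and 76.9 against 282 CPM. Of 8 carriers of sugar nucleotides or sulfate, 2 were higher, a share close to that of all genes. They were Slc35a1, the carrier of activated sialic acid, and Slc35b2, that of activated sulfate, and the sulfate transporter Slc26a2 was lower, at 261 against 1019 CPM and 244 against 608 CPM. Of 10 glycan enzymes outside the symbol rule, 6 were higher and 0 lower. One of them, A4gnt, which caps chains with alpha-1,4-linked N-acetylglucosamine, was at 36.1 against 0.386 CPM and 16.7 against 0.335 CPM. Among 6 mucins, Muc1, Muc2 and Muc4 were higher and Muc3 and Muc13 lower. Among 7 regulators of the goblet secretory path, which include class markers such as Spdef and Agr2, 6 were higher and 0 lower. Muc2 itself, a marker that named the class, was at 15982 and 17348 CPM in goblet-like and at 262 and 715 CPM in colonocyte-like cells. T/NK-like cells, which do not make it, held 723 and 3561 CPM of Muc2, so goblet RNA was counted in other cells of both libraries.

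Between libraries, few enzymes passed 2-fold over all kept cells. The GFP library had 0 of 53 higher, beside 2.56% of 12873 genes, and 5 (9.43%) lower, beside 6% of all genes. St3gal5, the synthase of the glycolipid GM3, was at 2.78 CPM in the whole epithelium library and 0.129 CPM in the GFP library, on 383 and 14 UMIs (log2 ratio -4.43, -5.31 to -3.66). It was lower in every class with UMIs enough to show it, and highest in cluster c11, at 8.80 CPM, and in cycling cluster c4, at 4.12 CPM, in the whole epithelium library. Chst12 was at 0.776 and 0.129 CPM, and 63 of its 107 UMIs in kept cells in the whole epithelium library lay in T/NK-like cells, which were 2.95% of that library and 1.06% in the GFP library. Their part in the Chst12 ratio was not tested. Chst11, B3gnt8 and Gcnt1 had log2 ratios of -1.85 (-2.27 to -1.44), -1.18 (-1.80 to -0.59) and -1.08 (-1.20 to -0.96). The shares of the classes differ between the libraries, so ratios over all cells also move with those shares.

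Within goblet-like cells, 4 of 41 enzymes passed 2-fold between libraries. St3gal4 was higher in the GFP library (2.44% of the enzymes, 2.15% of 10776 genes), and St6gal1, Gcnt1 and B3gnt6 were lower (7.32% of the enzymes, 2.74% of all genes). The levels of St6gal1 were 89.7 CPM in the whole epithelium library and 25.9 CPM in the GFP library, a log2 ratio of -1.79 (-1.92 to -1.66). Gcnt1 was at 25.4 and 8.08 CPM (-1.65, -1.89 to -1.42), and B3gnt6 at 50.1 and 21.1 CPM (-1.25, -1.40 to -1.10). St3gal4 was at 67.2 and 158 CPM (1.23, 1.14 to 1.32). Its ratio was past 2-fold in 10 of 13 other settings and smallest with the looser cell filter, at 0.77, and that of B3gnt6 was past it in 11 of 13, the smallest being -0.84. St3gal4 was at 41.8 and 317 CPM in T/NK-like cells of the same libraries, on 53 and 51 UMIs. Per cell, St3gal4 had 0.231 and 0.836 UMIs in T/NK-like and 1.17 and 4.27 UMIs in goblet-like cells. The part of such UMIs in the St3gal4 ratio was not tested. The libraries fill this class from different clusters. The goblet-like cells in the GFP library all lie in cluster c2, which holds 38 cells of the other library, while that library's cells lie mostly in c10, c18 and c21. Over c2 alone, the log2 ratios were -1.40 (-1.87 to -0.88) for St6gal1, -1.65 (-2.14 to -1.12) for B3gnt6 and 1.56 (1.04 to 2.14) for St3gal4, and 9 of 40 enzymes passed 2-fold. Of these, 6 were higher (15%, against 6.48% of 10043 genes) and 3 lower (7.5%, against 4.98%). Gcnt1 was at -0.87 there, with an interval of -1.87 to 0.36 that takes in 0. B3gnt7 turned, from -0.63 (-0.70 to -0.56) over the class to 1.65 (1.04 to 2.34) over c2.

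**Figure D3:**
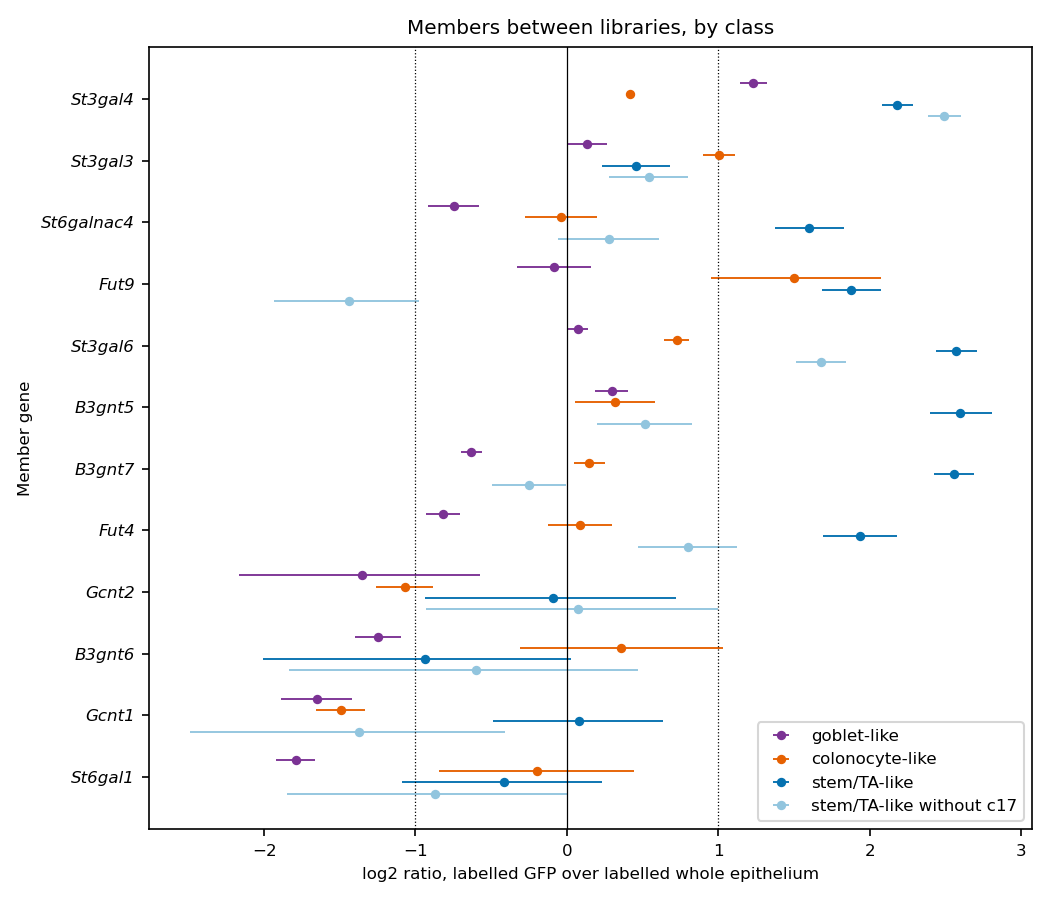
Log2 ratio in the GFP library over the whole epithelium library for 12 enzymes within goblet-like, colonocyte-like and stem/TA-like cells, and within stem/TA-like cells without cluster c17, with 95% intervals for counting error and dotted lines at 2-fold. St6gal1, Gcnt1 and B3gnt6 lie below the lower line in goblet-like cells. So does Gcnt2, which had fewer UMIs there than the 100 needed for a call. B3gnt7, B3gnt5, Fut4, Fut9 and St6galnac4 lie above the upper line in stem/TA-like cells but not without c17.

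Goblet-like cells of each library were divided into 6 sub-clusters, again without the enzymes, and several enzymes varied among these. B3gnt6 was at 117 CPM in sub-cluster g2 in the whole epithelium library, which was led by Plet1, Ido1 and Retnlb, and at 67.1 CPM in g1 in the GFP library, which was led by Samd5 and Mt3 and has B3gnt6 itself and Plet1 among its leading genes. It was at 4.33 CPM in g3 in the whole epithelium library and at 5.94 CPM in g5 in the GFP library, both led by Reg4, Mptx1, Sval1 and Best2, of which Reg4 marks deep crypt secretory cells. In g5 in the whole epithelium library and g4 in the GFP library, both with Adh1 and Fut9 among their leading genes, it was at 0.896 and 2.79 CPM. St6gal1 had another order. Its level was highest in the Reg4-led g3, at 197 CPM, and next in g2, at 112 CPM, in the whole epithelium library, whereas in the GFP library it ranged from 16.7 CPM in g1 to 72.8 CPM in g6. Gcnt1 was highest in the Reg4-led sub-clusters of both libraries, at 66.9 and 30.3 CPM, and lowest in the cycling one in the whole epithelium library, at 9.40 CPM, and in g1 in the GFP library, at 2.63 CPM, where g2 was as low. St3gal4 was highest in g1 in the whole epithelium library, at 142 CPM, and g3 in the GFP library, at 332 CPM. Both of these were led by the colonocyte markers Krt20 and Car1. The part of colonocyte RNA in these levels of St3gal4 was not tested.

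**Figure D4:**
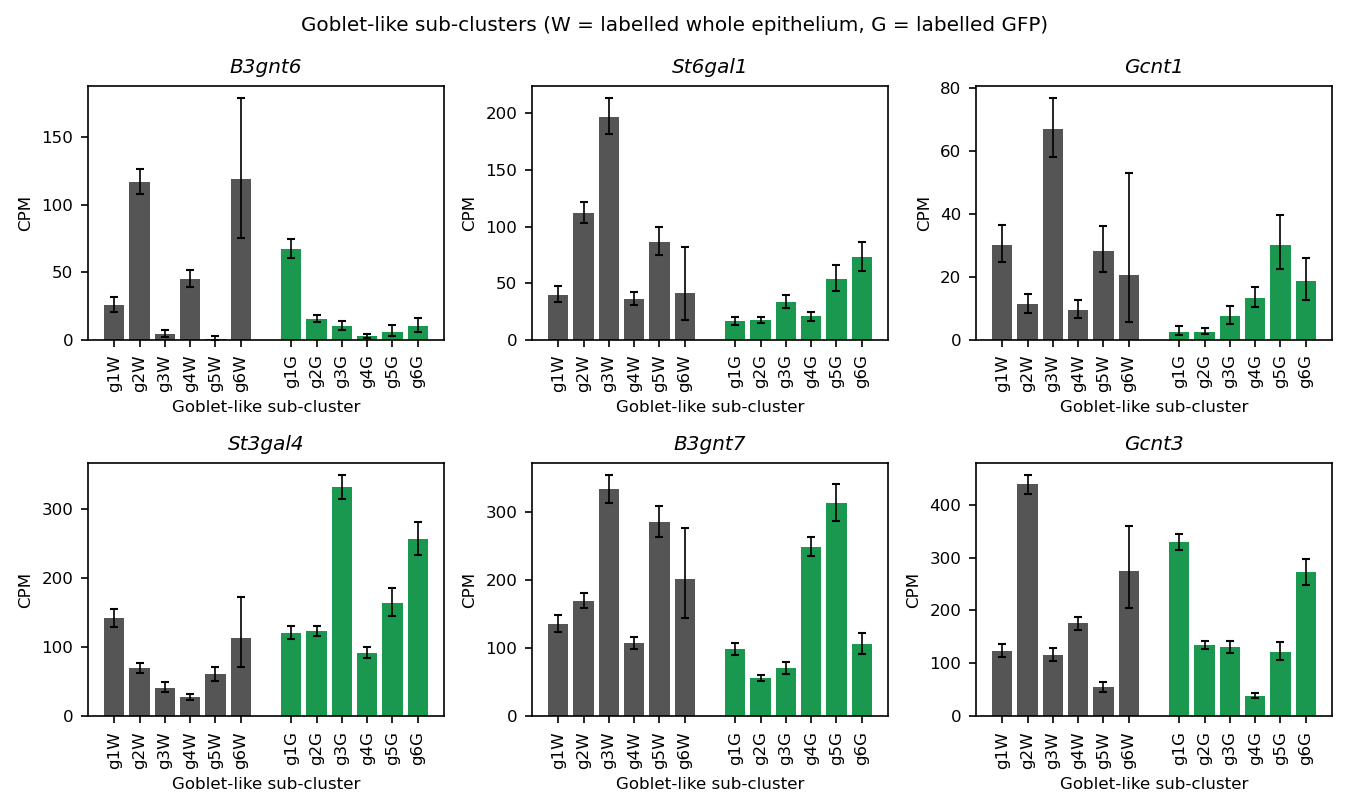
Levels in CPM of B3gnt6, St6gal1, Gcnt1, St3gal4, B3gnt7 and Gcnt3 in the 6 goblet-like sub-clusters of each library (W in grey, whole epithelium; G in green, GFP), with exact Poisson 95% intervals. B3gnt6 is highest in g2 and g6 in the whole epithelium library and in g1 in the GFP library, and St6gal1 is highest in the Reg4-led g3 in the whole epithelium library. The g6 in the whole epithelium library is shallow, with 77 cells and a median of 2073 UMIs, and is led by AY036118 and Pyy.

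Within colonocyte-like cells, 5 of 38 enzymes passed 2-fold between libraries, 3 of them higher in the GFP library (7.89%, against 2.68% of 10123 genes) and 2 lower (5.26%, against 3.91%). Fut9 was at 1.13 and 3.19 CPM in the whole epithelium and GFP libraries (log2 ratio 1.5, 0.95 to 2.08), on 38 and 105 UMIs. Galntl6 was at 1.10 and 2.40 CPM (1.13, 0.55 to 1.74), and St3gal3 at 33.3 and 66.7 CPM (1.00, 0.90 to 1.11). Gcnt1 was at 36.0 and 12.8 CPM (-1.49, -1.66 to -1.33), and Gcnt2 at 21.7 and 10.3 CPM (-1.07, -1.26 to -0.88). Gcnt1 was uneven over the clusters of the class, with 227 CPM in c23, 64.4 in c6, 23.0 in c13 and 11.3 in c8 in the whole epithelium library. With the stricter cell filter the log2 ratio of Gcnt1 turned to 0.34, and that of Gcnt2 shrank to -0.30, with 10 of 12 other settings past 2-fold for Gcnt2. St3gal3 was past 2-fold in only 6 of 12 other settings, with log2 ratios from 0.23 with equal weight per cluster to 1.76 with the stricter filter. Fut9 and Galntl6 were each under 2-fold in 1 of the 12, at 0.90 and 0.76. The classes of the libraries are made of different clusters here as well.

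Within stem/TA-like cells, 11 of 41 enzymes passed 2-fold between libraries. In the GFP library both clusters of this class, c12 and c17, were named by cycling markers. In the whole epithelium library c4 was named by cycling markers, but c9, with 560 of the 1334 cells, by stem markers. The ratios, with or without c17, thus set cycling-named cells against both kinds, and the part of this was not tested. The GFP library was higher for 9 of them (22%, against 2.68% of 10989 genes) and lower for 2 (4.88%, against 3.05%). The 9 were B3gnt5, St3gal6, B3gnt7, St3gal4, Fut4, Fut9, St6galnac4, Galnt5 and St6galnac6, with log2 ratios from 1.38 to 2.60. B3gnt5 was at 6.28 and 38.1 CPM in the whole epithelium and GFP libraries (2.60, 2.40 to 2.81), B3gnt7 at 15.2 and 89.4 CPM (2.56, 2.43 to 2.69), St3gal6 at 14.3 and 85.0 CPM (2.57, 2.44 to 2.71) and Fut4 at 5.12 and 19.6 CPM (1.93, 1.69 to 2.18). St3gal4 was at 25.6 and 116 CPM (2.18, 2.08 to 2.29). T/NK-like cells also held more St3gal4 (41.8 and 317 CPM), St6galnac6 (55.2 and 299 CPM) and St3gal6 (56.0 and 106 CPM) in the GFP library. St6galnac4 was nearly even there, at 16.6 and 18.7 CPM. The part of RNA from outside the cell in the stem/TA-like ratios was not tested. In stem/TA-like cells, St3gal5 was at 3.56 and 0.0834 CPM (-5.41, -8.47 to -3.53), on 141 and 2 UMIs.

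The number of enzymes higher in the GFP library depended on 1 of its clusters. Cluster c17, with 337 of the 767 stem/TA-like cells of that library, was led by Trf and Ttr beside the cycling gene Ube2c. It was singled out after the data were seen, and Fut9 is among its leading genes. Leaving out a cluster in which an enzyme is high lowers the ratio in any case, so the values without c17 are description only. Without c17, 2 of 38 enzymes were higher (5.26%, against 1.68% of 10764 genes) and 4 lower (10.5%, against 3.6%). The log2 ratio of B3gnt7 then turned to -0.25 (-0.50 to -0.01) and that of Fut9 to -1.44 (-1.93 to -0.98), B3gnt5 fell to 0.52 (0.20 to 0.83) and Fut4 to 0.80 (0.47 to 1.13), and St3gal4 stayed at 2.49 (2.38 to 2.60) and St3gal6 at 1.68 (1.51 to 1.84). With each library clustered on its own, B3gnt7 and Fut4 were also under 2-fold, at 0.42 and 0.89. The whole epithelium library had a cluster with some of the same leading genes, c7 (660 cells, led by B3gnt7, Adh1, Nxpe2, Cela1, Ttr and Fut9), which had no class name and so was outside the comparison. Between c17 and c7, the log2 ratios of B3gnt7, Fut9, Fut4 and St3gal6 were -0.72 (-0.80 to -0.65), 0.10 (-0.04 to 0.24), -0.22 (-0.41 to -0.03) and 0.24 (0.14 to 0.33). Set against c7, none of B3gnt7, Fut9, Fut4 and St3gal6 passed 2-fold. The pair was chosen by shared leading genes, which include Fut9, and c7 is itself led by B3gnt7. The ratios of B3gnt7 and Fut9 are therefore not independent of that choice. The other enzymes that were higher in stem/TA-like cells in the GFP library are not given for this pair.

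The clusters c7 and c17 also had high levels of Hoxb13, a homeobox gene known as a marker of the distal colon, at 393 and 260 CPM. After these values and the enzyme levels of the clusters were seen, the cluster with the most Hoxb13 was set against that with the least. This was done in 3 families of cells and in each library, which gave 6 pairs. Clusters c7 and c17 are among them, and their enzyme levels were known when the pairs were chosen. The counts over the pairs are therefore not independent of those levels. The pairs were c13 and c6 (516 and 7.18 CPM of Hoxb13) and c14 and c16 (208 and 8.31 CPM) of colonocyte-like cells, g5 and g2 (367 and 30.4 CPM) and g4 and g1 (266 and 26.9 CPM) of goblet-like cells, and c7 and c9 (393 and 22.4 CPM) and c17 and c12 (260 and 31.2 CPM) of stem/TA-like and deeper unnamed cells, the whole epithelium pair first each time. Members of a pair differ in more than Hoxb13, such as cycling genes and, in c9, haemoglobin genes, and the part of these was not tested.

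Of 33 enzymes with at least 30 UMIs in every pair, Gcnt3 was at least 2-fold lower in the Hoxb13-high cluster of all 6 pairs (3.03%, against 0.408% of 8815 genes), and 0 were at least 2-fold higher in all 6, as were 0.397% of genes. Gcnt3 was at 9.36 CPM in the Hoxb13-high and 148 CPM in the Hoxb13-low colonocyte-like cluster in the whole epithelium library, and at 24.0 and 170 CPM in those in the GFP library. In goblet-like sub-clusters it was at 54.6 and 438 CPM, and at 39.1 and 329 CPM. In the stem/TA-like and unnamed pairs it was at 4.04 and 22.1 CPM, and at 16.1 and 35.9 CPM. The log2 ratios of Gcnt3 ran from -3.99 (-4.36 to -3.63) to -1.15 (-1.42 to -0.89), the smallest gap being that of c17 and c12. Counting any size of difference, 5 enzymes were higher in the Hoxb13-high cluster of all 6 pairs (B3gnt7, B3gnt5, St3gal6, St6galnac4 and B4galt6; 15.2%, against 4.98% of genes). In the other direction 6 were lower in all of them (Gcnt3, Galnt1, Galnt4, Galnt10, Galnt12 and St3gal1; 18.2%, against 6.33%). With the goblet-like cells divided more finely, St3gal1 was no longer among these.

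B3gnt7 (ENSMUSG00000079445, chromosome 1, 86302832 to 86307305), which lengthens chains of keratan sulfate type, was at 136 and 21.0 CPM in the Hoxb13-high and Hoxb13-low colonocyte-like clusters in the whole epithelium library, and at 141 and 10.7 CPM in those in the GFP library. In the goblet-like pairs the levels of B3gnt7 were 285 and 169 CPM, and 249 and 98.5 CPM, and in the remaining pairs 332 and 10.5 CPM, and 202 and 12.8 CPM. The log2 ratios ran from 0.75 (0.60 to 0.90) in goblet-like cells in the whole epithelium library to 4.98 (4.75 to 5.22) for c7 over c9. B3gnt7 was thus higher in each Hoxb13-high cluster, with the least contrast in goblet-like cells. B3gnt5 had log2 ratios from 0.55 (0.26 to 0.84) to 5.35 (4.20 to 6.81), and St3gal6, another alpha-2,3-sialyltransferase, from 0.34 (0.21 to 0.46) to 4.83 (4.43 to 5.25).

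Fut4 and St3gal3 did not keep 1 direction. Fut4 had log2 ratios of 3.03 (2.52 to 3.58) and 2.61 (2.1 to 3.16) in the colonocyte-like pairs of the whole epithelium and GFP libraries, but -1.29 (-1.59 to -0.99) and 0.00 (-0.22 to 0.22) in the goblet-like pairs. St3gal3 was at 2.15 (1.76 to 2.56) and 3.19 (2.78 to 3.62) in the colonocyte-like pairs and at -1.76 (-2.21 to -1.33) and -1.98 (-2.31 to -1.65) in the goblet-like pairs. The order of these genes between clusters therefore depended on the class.

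**Figure D5:**
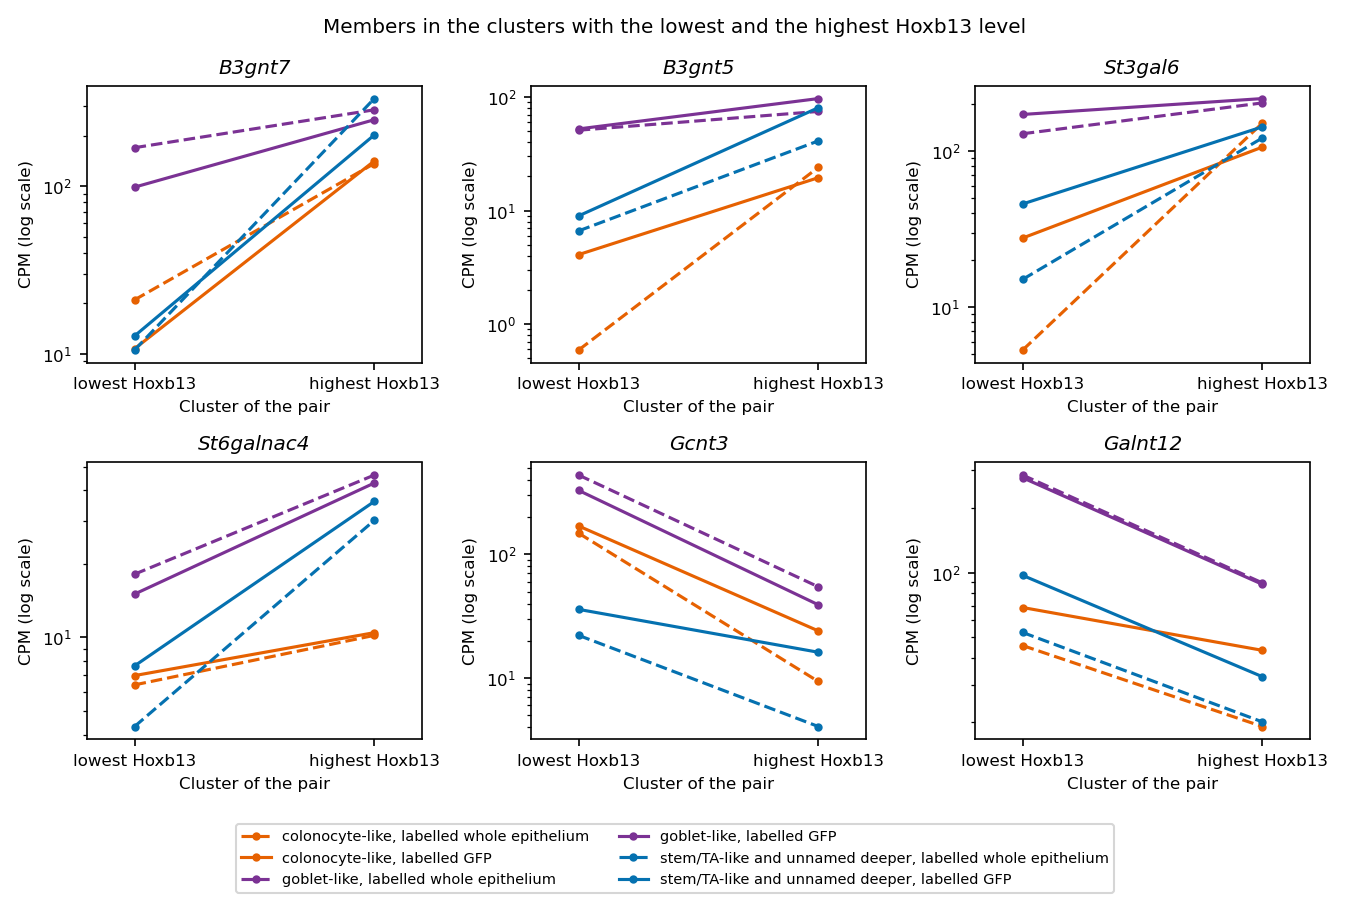
Levels in CPM, on log axes, of 6 enzymes in the cluster with the least and that with the most Hoxb13, with a line for each of 6 pairs of clusters (colours are the 3 families of cells, dashed lines the whole epithelium and solid lines the GFP library). The lines of Gcnt3 and Galnt12 fall in all 6 pairs, and those of B3gnt7, B3gnt5, St3gal6 and St6galnac4 rise in all 6.

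The sequences before the start sites of B3gnt7, B3gnt5 and St3gal6 are shown. These are 3 of the 5 enzymes that were higher in the Hoxb13-high cluster of every pair. With the goblet-like cells divided more finely, these 3 were at least 2-fold higher in every pair. St6galnac4 and B4galt6 are not shown. The sequences are RefSeq promoters on build GRCm38.p6, the 250 bases before the annotated start, read 5′ to 3′ on the gene's strand. Capitals mark the motif ATAAA, searched on both strands, which holds the core that caudal-type and posterior Hox proteins are known to bind. The B3gnt7 window is at chr1:86302971-86303220 on the plus strand and lies in an exon of another, earlier-starting transcript in GENCODE. The B3gnt5 window is at chr16:19759984-19760233 on the plus strand, and that of St3gal6 at chr16:58524254-58524503 on the minus strand, before the most upstream of its starts.
B3gnt7: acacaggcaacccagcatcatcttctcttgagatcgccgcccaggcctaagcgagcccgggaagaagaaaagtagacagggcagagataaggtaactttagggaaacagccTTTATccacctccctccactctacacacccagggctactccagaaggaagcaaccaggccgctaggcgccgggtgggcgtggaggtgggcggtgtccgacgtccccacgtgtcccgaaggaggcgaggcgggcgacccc
B3gnt5: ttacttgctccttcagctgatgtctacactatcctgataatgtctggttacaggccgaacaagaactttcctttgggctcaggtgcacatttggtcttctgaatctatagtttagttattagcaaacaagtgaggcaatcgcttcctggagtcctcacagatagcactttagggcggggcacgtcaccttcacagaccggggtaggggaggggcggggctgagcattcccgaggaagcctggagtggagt
St3gal6: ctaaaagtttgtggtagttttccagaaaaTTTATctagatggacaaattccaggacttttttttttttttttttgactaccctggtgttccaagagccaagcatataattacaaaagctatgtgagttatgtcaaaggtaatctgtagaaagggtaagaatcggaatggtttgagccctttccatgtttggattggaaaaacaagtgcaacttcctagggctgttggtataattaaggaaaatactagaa
The printed windows of B3gnt7 and St3gal6 hold 1 match each, and that of B3gnt5 holds none. The window of the other RefSeq start of St3gal6, which is not printed, holds none either. Over all 32851 RefSeq promoters of this length, 37.26% hold ATAAA, and of the 54 promoters matched to 40 of the 53 enzymes 24.07% do. The related motif GTAAA, also searched on both strands, is in none of these 3 windows and in 28.32% of all promoters. A match is a description of the letters and not of a bound site.

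The genes that were not used had few UMIs. Among GalNAc transferases Galnt2 had 38 UMIs, but 99.6% of the last 500 exon bases of Galnt2 overlap the readthrough gene model Gm20388 on the same strand. Reads there cannot be given to 1 gene, so its low count is uncertain. The same holds for B4galt2, with 17 UMIs and 100% of its last 500 exon bases shared with Ccdc24. Galnt6os, an antisense RNA to Galnt6 that the symbol rule takes in, had 125 UMIs and was in no comparison of classes. Chst5, Chst2 and Chst1 had 7, 3 and 2 UMIs, and Galntl5 and Chst9 had 0, which does not show that they are absent.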

How the data were processed

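Colon epithelial cells were measured in 2 libraries with 3' single-cell chemistry from 10x Genomics, per the labels' protocols. The deposited matrices hold raw UMI counts per gene and barcode, aligned to mm10 with Cell Ranger. The submitters' processing notes name version 2.1.1 and the file headers version 3.1.0, which was not resolved. Barcodes were kept with at least 500 genes, 1000 UMIs and at most 25% mitochondrial UMIs. No doublet caller was run and doublets were kept. Both libraries were clustered together (scanpy 1.11.5, leidenalg 0.10.2, 2000 variable genes without the enzymes, 30 components, 15 neighbours, resolution 1.0).

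Clusters took the class whose markers were on average highest over the median cluster of their library, on a log2 scale with 10 CPM added, with at least 3 markers 2-fold up and a mean log2 score of 1.0, or 3.0 for clusters with a median UMI count under 1/3 of the library's. Both scores were set after the clusters had been seen, since lower ones named mixed and shallow clusters. The enzymes, the lists and the pathway genes were chosen with earlier results of these data known.

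UMIs were summed over the cells of each class. Sums carry exact Poisson, ratios exact conditional binomial intervals (scipy 1.17.1). The ratio intervals were run on simulated Poisson counts, the model they assume, so that run cannot show how they cover sums over cells that vary. PCR errors and free RNA are outside these intervals. Full values were given by rule for at most 12 enzymes with the largest smaller fold between goblet-like and colonocyte-like cells, for at most 6 per class between libraries, and for the gene with the most UMIs of each role. Others were named after their values were seen.

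Gene positions and exon overlaps are from GENCODE vM21, and promoters from RefSeq (GRCm38.p6). Alternatives were other cell filters and resolutions, separate clustering, equal weights per cell or cluster, median centring, 300 UMIs as the minimum, and those named as added later.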

Additional observations from a re-analysis of the deposited data

Results flagged for a closer look

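For 5 enzymes, the ratio of the library labelled GFP over the library labelled whole epithelium was below 0 on the log2 scale in goblet-like cells, with a counting interval that left out 0, and past 2-fold above in stem/TA-like cells. The ratios were -0.63 and 2.56 for B3gnt7, -0.75 and 1.60 for St6galnac4, -0.31 and 1.38 for St6galnac6, -0.15 and 1.54 for Galnt5, and -0.82 and 1.93 for Fut4. Fut9 had -0.09 and 1.88, but its goblet-like interval of -0.33 to 0.16 takes in 0. The difference between the classes was not tested, as each ratio rests on 1 library per group. The stem/TA-like ratios were smaller without cluster c17, at -0.25 for B3gnt7, 0.28 for St6galnac4, 1.00 for St6galnac6, 0.59 for Galnt5 and 0.80 for Fut4.

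Enzyme UMIs were also present in the barcodes that the filter left out. These held 1469 CPM of enzyme RNA in the library labelled whole epithelium (6205 barcodes) and 1645 CPM in the library labelled GFP (7808 barcodes), beside 1775 and 2321 CPM in kept cells.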

How the results depend on the processing

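No paired analysis was possible because each group has 1 library and the labels give no replicate numbers. Of 39 named log2 ratios, 37 kept their sign and 28 stayed past 2-fold in every setting that gave a value. The log2 ratio between libraries turned to 0.34 for Gcnt1 in colonocyte-like cells with the stricter filter, and to -0.25 for B3gnt7 in stem/TA-like cells without cluster c17. The number of enzymes past 2-fold between libraries over all cells, 5, was 3 among those with at least 300 UMIs. That in goblet-like cells, 4, was 9 over cluster c2 alone. That in colonocyte-like cells, 5, was 10 with the stricter filter, 3 with each library clustered on its own and 8 with equal weight per cluster. That in stem/TA-like cells, 11, was 7 with separate clustering and 6 without c17. The cause of these shifts was not tested. Goblet-like against colonocyte-like and stem/TA-like counts stayed within 1.5 times. At resolution 0.5, 1 library had no stem/TA-like class and gave no value. With goblet-like sub-clusters at resolution 1.0, B3gnt7, B3gnt5 and St3gal6 were also at least 2-fold higher in all 6 Hoxb13 pairs, so 3 and not 0 were, and 5 of 32 rather than 6 of 33 were lower at any size, without St3gal1. Marker scores of 0.5 and 1.5, the settings on c2 and c17, the comparison with stem/TA-like cells and the Hoxb13 pairs were chosen after seeing the data.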
